A study of Mus musculus with 28 samples.

Results

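The CXC chemokines and their receptors were followed as a set of 10 named genes in mouse ear skin, namely Cxcl1, Cxcl2, Cxcl3, Cxcl5, Cxcl10, Cxcl12, Cxcl14, Cxcl16, Cxcr2 and Cxcr4. They are 10 of the 55414 genes in the count table and were taken by name, and all 10 passed the filter on low counts, which left 18991 genes for testing. Cxcl3 and Cxcl5 passed it only through the TPA libraries, so that their direction in the comparisons with TPA was set by passing. Ear RNA came from 28 female C57BL/6J mice aged 6 to 8 weeks, 1 library per mouse, sampled as a 4 mm punch of whole ear skin 4 hours after the challenge. The Vehicle group (n = 4) was given acetone only, the RGRN-305 group (n = 4) had RGRN-305 (1 mg per ear) followed by acetone, the TPA group (n = 10) had acetone followed by TPA (2.5 µg per ear), and the TPA+RGRN-305 group (n = 10) had both. TPA, a phorbol ester and activator of protein kinase C, inflames the skin within hours, and RGRN-305 is an inhibitor of the chaperone HSP90. The study describes 2 independent experiments for its mice, and the experiment of each sequenced mouse was not given in the sources used here.

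CXC chemokines are small secreted proteins that draw leukocytes along a gradient through G protein-coupled receptors. Cxcl1, Cxcl2, Cxcl3 and Cxcl5 are ligands of Cxcr2, the receptor that brings neutrophils from blood into inflamed skin. Mice have no gene for the human neutrophil chemokine CXCL8, and these ligands act through Cxcr2 in its place. Cxcl10 is an interferon-induced ligand of Cxcr3 on activated T cells. Cxcl12 is made constitutively by stromal cells and binds Cxcr4. Cxcl14 is made at high levels by resting epithelium, and Cxcl16 is a membrane-bound ligand of Cxcr6 that can be shed.

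The library totals ran from 16751780 to 24716640 counts. A normalised count below is a count scaled by TMM to the mean library, and a fold change is on the log2 scale from the quasi-likelihood test of edgeR, with p-values adjusted over all 18991 genes. A gene was a DEG if its adjusted p was below 0.05, its mean normalised count above 50 and its log2 fold change beyond 1 in either direction. In 4 libraries (RGRN-305 4, TPA 3, TPA+RGRN-305 1 and 6) the transcripts of the growing hair follicle were over 5 times the median library, in 3 more (RGRN-305 3, TPA+RGRN-305 2 and 9) over 2 times, and TPA+RGRN-305 6 was also low in Xist. The median log2 fold change over all genes depended on the scaling, at -0.03 by TMM and -0.32 by library totals alone in TPA versus Vehicle, and at 0.02 and 0.28 in TPA+RGRN-305 versus TPA. The summed keratinocyte markers, 465232 to 583046 normalised counts per library, overlapped among all 4 groups. The ear skin is bulk tissue, and in such samples fewer cells of a type and less RNA per cell cannot be told apart.

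Cxcl1, Cxcl2, Cxcl3 and Cxcl5 lie together on mouse chromosome 5 of GRCm39, and the same 11 bases stand shortly before the start of each. Cxcl5 spans 90907186 to 90909483, Cxcl3 90933962 to 90937459, Cxcl1 91039094 to 91040974 and Cxcl2 91051730 to 91053797, all on the forward strand, with Ppbp, Pf4 and Cxcl15 between them. Cxcl10 lies further along the same chromosome, at 92494497 to 92496748 on the reverse strand. The 200 bases before the start of the canonical transcript of these 5 genes are printed 5′ to 3′ on the strand of the gene, because they carry the motif matches. Capitals mark matches to the consensus of the kappa-B motif bound by NF-kappa-B and, in Cxcl10, also to the AP-1 motif TGANTCA. The positions are chr5:91038894-91039093 for Cxcl1, chr5:91051530-91051729 for Cxcl2, chr5:90933762-90933961 for Cxcl3, chr5:90907037-90907236 for Cxcl5 and chr5:92496749-92496948 for Cxcl10, read from the GRCm39 genome with GENCODE starts.
Cxcl1: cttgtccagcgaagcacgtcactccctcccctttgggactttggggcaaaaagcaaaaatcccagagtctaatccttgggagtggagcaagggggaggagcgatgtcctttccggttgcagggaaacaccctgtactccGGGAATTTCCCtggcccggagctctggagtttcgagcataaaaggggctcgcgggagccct
Cxcl2: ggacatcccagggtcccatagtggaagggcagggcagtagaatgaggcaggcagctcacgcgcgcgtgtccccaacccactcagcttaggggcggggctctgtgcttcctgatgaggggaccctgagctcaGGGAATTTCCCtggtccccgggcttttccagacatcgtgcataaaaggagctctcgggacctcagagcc
Cxcl3: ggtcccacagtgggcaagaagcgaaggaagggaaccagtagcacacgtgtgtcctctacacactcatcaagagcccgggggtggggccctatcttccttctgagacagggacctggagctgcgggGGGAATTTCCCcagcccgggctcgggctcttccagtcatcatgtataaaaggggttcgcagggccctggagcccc
Cxcl5: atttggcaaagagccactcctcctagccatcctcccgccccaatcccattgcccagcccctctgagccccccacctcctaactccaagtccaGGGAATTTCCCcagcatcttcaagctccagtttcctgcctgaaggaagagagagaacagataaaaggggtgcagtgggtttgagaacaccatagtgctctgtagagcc
Cxcl10: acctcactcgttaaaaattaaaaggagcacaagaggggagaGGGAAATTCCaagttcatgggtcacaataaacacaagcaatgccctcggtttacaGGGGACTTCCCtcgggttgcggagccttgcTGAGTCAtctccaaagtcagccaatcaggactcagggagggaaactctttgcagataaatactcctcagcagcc
In Cxcl1, Cxcl2, Cxcl3 and Cxcl5 the capitals are the same stretch, GGGAATTTCCC, beginning 61, 69, 75 and 108 bases before the start. On the strand of the gene this stretch was found in 9 of 21770 promoters (0.0413%), the other 5 being those of Gbp6, Gm11100, Kremen2, Krtap5-3 and Lyzl4, a search made after the matches were seen. In Cxcl10 there were 2 kappa-B stretches, beginning 159 and 104 bases before the start, and 1 AP-1 match. Searched on both strands over 300 bases (250 before to 50 after the start), with overlapping matches taken as 1 stretch, a kappa-B match was present in 8.97% and an AP-1 match in 7.14% of the 21770 promoters. In Cxcl12 (chromosome 6), Cxcl14 (chromosome 13), Cxcl16 (chromosome 11), Cxcr2 and Cxcr4 (chromosome 1) neither motif was found in that window. A match is a description of the letters and not a measured binding site.

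Cxcl1, the first of the Cxcr2 ligands, became the most abundant member per kilobase after TPA. Its normalised counts were 13.5, 17.4, 153 and 30.0 in the 4 Vehicle mice, and 134, 91.6, 22.5 and 112 in the 4 RGRN-305 mice. In TPA mice it ran from 4521 to 6680.1 with a median of 5531, and in TPA+RGRN-305 mice from 533 to 1907 with a median of 1093. Every TPA mouse lay above every TPA+RGRN-305 mouse, and every TPA+RGRN-305 mouse lay above every Vehicle and RGRN-305 mouse. The log2 fold change was 6.70 in TPA versus Vehicle (SE 0.44, adjusted p = 1.6e-14, edgeR), and adding RGRN-305 to TPA gave -2.27 (SE 0.22, adjusted p = 9.8e-11, edgeR). Vehicle 3 stood apart from the other Vehicle mice, and without it the rise was 8.10. With TPA+RGRN-305 the level was still higher than in Vehicle by 4.43 on the log2 scale (adjusted p = 7.8e-09, edgeR), or 5.83 without Vehicle 3. With RGRN-305 alone 3 of the 4 mice lay above 3 of the 4 Vehicle mice, and the fold change of 0.69 (95% interval -0.34 to 1.73) did not pass (adjusted p = 0.660, edgeR). Without Vehicle 3 it was 2.09 (adjusted p = 0.223, edgeR).

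Cxcl2, a Cxcr2 ligand made by macrophages and keratinocytes, was nearly silent at rest and fell further than Cxcl1 with RGRN-305. It had 8.30, 7.61, 21.8 and 12.7 normalised counts in Vehicle mice and 15.6, 9.96, 0 and 16.6 in RGRN-305 mice. TPA mice had 1872 to 2882 with a median of 2119, and TPA+RGRN-305 mice had 60.6 to 329.9 with a median of 148. The TPA and TPA+RGRN-305 mice did not overlap, and the lowest TPA+RGRN-305 mouse lay above the highest Vehicle mouse. With TPA the log2 fold change was 7.45 (SE 0.40, adjusted p = 1.2e-16, edgeR), whereas the value was -3.75 in TPA+RGRN-305 versus TPA (SE 0.19, adjusted p = 2.3e-17, edgeR), and it was 3.70 in TPA+RGRN-305 versus Vehicle (adjusted p = 2.0e-07, edgeR). With RGRN-305 alone it was -0.33 and did not pass.

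Cxcl3 and Cxcl5, the other 2 Cxcr2 ligands of the set, were at or near 0 without TPA. Cxcl3 had raw counts of 0, 0, 1 and 2 in Vehicle mice and 0 in all 4 RGRN-305 mice, so that no fold is given for RGRN-305 alone. In TPA mice it ran from 73.2 to 176 normalised counts with a median of 106, and in TPA+RGRN-305 mice from 1.84 to 9.46 with a median of 3.80. The ratio of scaled counts was 156 in TPA versus Vehicle, with a 95% counting interval of 53.3 to 759, and 6.54 (2.12 to 32.7) in TPA+RGRN-305 versus Vehicle. In TPA+RGRN-305 versus TPA it fell by 4.55 on the log2 scale (SE 0.24, adjusted p = 3.5e-16, edgeR). That direction was set by its passing the filter through the TPA libraries, so that the p is no support for it. Among the 8 members not bound in this way Cxcl2 had the largest fall (-3.75), and for Cxcl3 the comparison of TPA+RGRN-305 with Vehicle is the less bound one. Against Vehicle the TPA+RGRN-305 level passed (log2 fold change 2.52, adjusted p = 0.0149, edgeR), but it rests on 3 Vehicle counts and did not pass without Vehicle 1 (2.18, adjusted p = 0.0562) or without Vehicle 2 (2.20, adjusted p = 0.0534, edgeR).

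Cxcl5, which epithelial cells make as a neutrophil attractant, had 1.04, 0, 0.946 and 10.9 normalised counts in Vehicle mice and 4.16, 1.99, 2.60 and 1.95 in RGRN-305 mice. TPA mice had 27.0 to 59.0 with a median of 43.2. TPA+RGRN-305 mice had 0 to 6.31 with a median of 3.37, inside the range of the Vehicle mice. The log2 fold change was 3.56 with TPA (SE 0.46, adjusted p = 3.9e-08, edgeR) and, with RGRN-305 added to TPA, -3.65 relative to TPA (SE 0.32, adjusted p = 9.1e-12, edgeR). Both directions were set by its passing the filter through the TPA libraries, so that these p are no support for them. The difference of TPA+RGRN-305 from Vehicle was -0.09 (adjusted p = 0.936, edgeR). Vehicle 4 held most of the Vehicle counts, and without it these values were 5.70 for TPA and 2.05 for TPA+RGRN-305 versus Vehicle (adjusted p = 0.0862, edgeR).

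Cxcl10, the interferon-induced Cxcr3 ligand, rose less than Cxcl1 and Cxcl2. It had 15.6, 12.0, 13.2 and 1.82 normalised counts in Vehicle mice and 10.4, 15.9, 4.33 and 17.6 in RGRN-305 mice. TPA mice had 100.3 to 187 with a median of 123, and TPA+RGRN-305 mice 16.4 to 53.7 with a median of 26.8. The Vehicle, TPA+RGRN-305 and TPA mice were ordered without overlap, while RGRN-305 alone overlapped both Vehicle and TPA+RGRN-305. With TPA it changed by 3.65 on the log2 scale (SE 0.32, adjusted p = 1.2e-11, edgeR), whereas the value was -2.22 in TPA+RGRN-305 versus TPA (SE 0.19, adjusted p = 5.6e-12, edgeR), and it was 1.43 in TPA+RGRN-305 versus Vehicle (adjusted p = 0.0030, edgeR). Cxcl9, which shares its receptor, had a mean of 32.8 in Vehicle mice, 63.8 in TPA mice and 26.5 in TPA+RGRN-305 mice, with log2 fold changes of 0.96 and -1.24 in the same 2 comparisons (adjusted p = 0.0055 and 1.1e-05, edgeR).

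Cxcl14 and Cxcl16, which resting skin already expressed, rose less. Cxcl14 had 1257, 1191, 1301 and 1233 normalised counts in Vehicle mice and 1402, 1424, 1448 and 1406 in RGRN-305 mice, so that all 4 RGRN-305 mice lay above all 4 Vehicle mice, as in 2.37% of all genes. That difference of 0.19 on the log2 scale (95% interval -0.05 to 0.43) did not pass (adjusted p = 0.605, edgeR). TPA mice had 2808 to 3967 with a median of 3509, and TPA+RGRN-305 mice 1331 to 2123 with a median of 1629.8. The log2 fold change was 1.48 with TPA (SE 0.11, adjusted p = 8.2e-14, edgeR), whereas the value was -1.02 in TPA+RGRN-305 versus TPA (SE 0.07, adjusted p = 1.1e-13, edgeR), and it was 0.46 in TPA+RGRN-305 versus Vehicle (adjusted p = 0.0011, edgeR).

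Cxcl16 had 576, 644, 515 and 472 normalised counts in Vehicle mice and 773, 775, 504 and 641 in RGRN-305 mice, which overlapped. TPA mice had 2229.7 to 3147 with a median of 2691 and TPA+RGRN-305 mice 834 to 1435 with a median of 1032, so that the TPA, TPA+RGRN-305 and Vehicle mice were again apart. On the log2 scale the change was 2.29 with TPA (SE 0.13, adjusted p = 8.8e-16, edgeR), whereas the value was -1.32 in TPA+RGRN-305 versus TPA (SE 0.09, adjusted p = 2.0e-14, edgeR), and it was 0.97 in TPA+RGRN-305 versus Vehicle (adjusted p = 1.3e-06, edgeR). Its receptor gene Cxcr6 had a mean of 37.3 normalised counts in Vehicle mice, 47.5 in TPA mice and 33.6 in TPA+RGRN-305 mice, and it did not pass with TPA (log2 fold change 0.35, adjusted p = 0.213, edgeR).

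Cxcl12, the stromal ligand of Cxcr4, was the member that passed in none of the comparisons with TMM scaling. It had 1847, 1816, 1813 and 1771 normalised counts in Vehicle mice, 1836, 1564, 1569.7 and 1805 in RGRN-305 mice, 1721 to 2017 in TPA mice (median 1915) and 1411 to 2182 in TPA+RGRN-305 mice (median 1813), and all groups overlapped. The log2 fold change was 0.05 with TPA (95% interval -0.11 to 0.21, adjusted p = 0.577, edgeR) and, with RGRN-305 added to TPA, -0.04 relative to TPA (95% interval -0.16 to 0.08, adjusted p = 0.544, edgeR). Its sign turned with library totals alone, to -0.24 and 0.22 (adjusted p = 0.0120 and 0.0027, edgeR), along with the median of all genes, and relative to that median it was 0.08 and -0.06 under either scaling.

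Cxcr2, the receptor of the neutrophil ligands, rose with them. It had 76.7, 82.6, 123 and 133 normalised counts in Vehicle mice and 193, 178, 92.6 and 131 in RGRN-305 mice. TPA mice had 947 to 1413 with a median of 1094, and TPA+RGRN-305 mice had 106 to 329.9 with a median of 195. TPA mice lay above all others, while the TPA+RGRN-305 mice overlapped the Vehicle and RGRN-305 mice. Its log2 fold change was 3.43 with TPA (SE 0.24, adjusted p = 5.5e-14, edgeR), whereas the value was -2.50 in TPA+RGRN-305 versus TPA (SE 0.15, adjusted p = 1.7e-15, edgeR), and it was 0.92 in TPA+RGRN-305 versus Vehicle (adjusted p = 0.0037, edgeR). With RGRN-305 alone it was 0.50 (95% interval -0.05 to 1.05, adjusted p = 0.556, edgeR). Cxcr1, the related receptor, had 0 counts in every Vehicle library and 3.9 to 11.4 normalised counts in TPA mice.

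Cxcr4, the receptor of Cxcl12, had the smallest rise among the members that changed and was below the Vehicle level with TPA+RGRN-305. It had 119, 78.3, 113 and 122 normalised counts in Vehicle mice and 73.8, 65.7, 61.4 and 80.0 in RGRN-305 mice. TPA mice had 164 to 256 with a median of 197, and TPA+RGRN-305 mice 40.5 to 90.5 with a median of 72.2. The lowest Vehicle mouse lay inside the range of the RGRN-305 and TPA+RGRN-305 mice, and the other 3 lay above both. The log2 fold change was 0.93 with TPA (SE 0.14, adjusted p = 9.1e-07, edgeR), whereas the value was -1.50 in TPA+RGRN-305 versus TPA (SE 0.11, adjusted p = 8.2e-14, edgeR), and it was -0.58 in TPA+RGRN-305 versus Vehicle (adjusted p = 0.0035, edgeR). With RGRN-305 alone it was -0.63 (95% interval -0.98 to -0.27), with an unadjusted p of 0.0012 and an adjusted p of 0.398 by edgeR, and 0.226 by DESeq2, so that it did not pass.

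**Figure D1:**
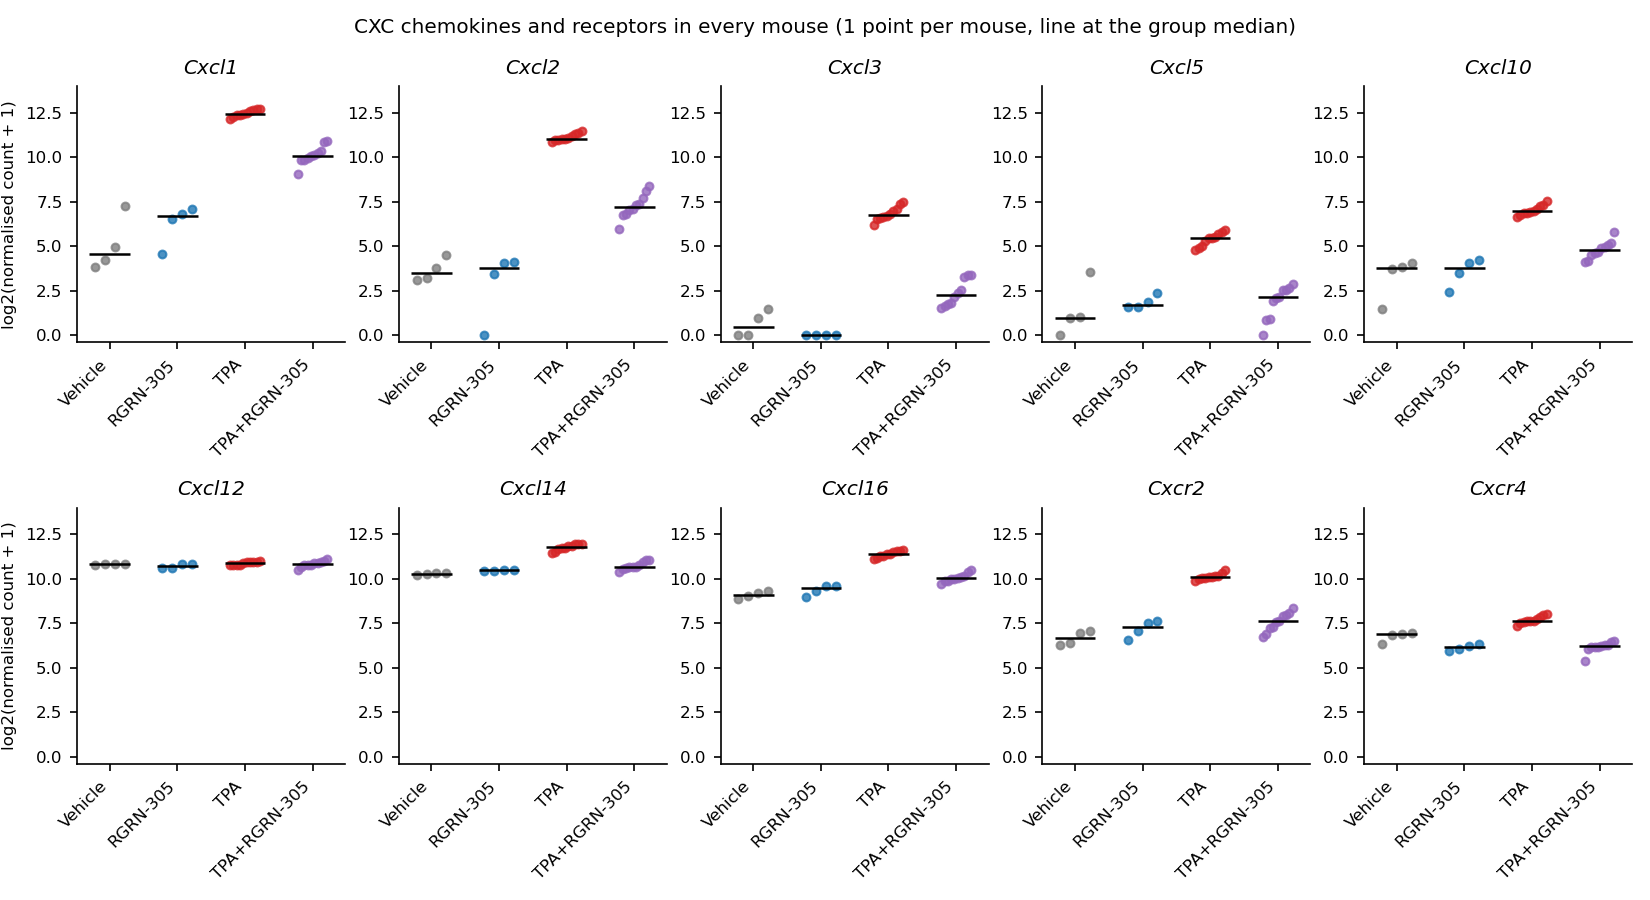
Each point is 1 mouse, with log2(normalised count + 1) on the vertical axis, the 4 groups on the horizontal axis, 1 panel per gene and a line at the group median. In 9 panels the TPA mice lie above all Vehicle and all TPA+RGRN-305 mice, and in the Cxcl12 panel the groups overlap.

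Over the whole set, TPA raised 9 of the 10 genes, and 9 were lower when RGRN-305 was given before TPA, with Cxcl12 the gene that did not pass in either comparison. In TPA versus Vehicle 9 genes were higher and 0 lower at the adjusted p, against 31.6% of all genes higher and 34.4% lower, and 6 were higher DEGs, against 7.61%. In 9 genes the TPA and Vehicle mice did not overlap, against 23.8% of all genes higher without overlap. Of the 8 genes that did not depend on the TPA libraries to pass the filter, 7 were higher, 6 of them DEGs, and 7 did not overlap, with a median log2 fold change of 2.86 (3.50 over the 10), against -0.03 over all genes. In TPA+RGRN-305 versus TPA 9 were lower and 0 higher, against 32.6% of all genes lower and 33% higher, 7 were lower DEGs, against 4.61%, and 9 did not overlap, against 15.5%. Of the same 8 genes, 7 were lower, all 7 of them DEGs, with a median of -1.86 (-2.24 over the 10), against 0.02 over all genes.

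With RGRN-305 alone 0 of the 10 genes passed the adjusted p by edgeR or by DESeq2, and 1 (Cxcr4) had an unadjusted p under 0.05 by edgeR (9.53% of all genes) and 2 by DESeq2 (10% of all genes), so that the count by edgeR was near the background. Over all genes 0% passed the adjusted p with edgeR and 19 genes passed with DESeq2. Against Vehicle, 7 genes remained above Vehicle with TPA+RGRN-305 (11.7% of all genes), 6 of them without overlap of the mice (6.58% of all genes), 1 (Cxcr4) was lower (10.3%) and 2 (Cxcl5 and Cxcl12) did not pass, with a median of 0.95 against -0.02 over all genes. Of the 7, Cxcl1, Cxcl2 and Cxcl10 were DEGs, against 1.23% of all genes. Cxcl3, among the 6 without overlap, was apart only through the scaling, since Vehicle 4 and TPA+RGRN-305 9 both had 2 raw counts. Of the 8 genes that did not depend on the TPA libraries to pass the filter, 6 were higher, 5 of them without overlap, and 1 was lower. The comparisons share mice, since Vehicle mice enter 3 of them and TPA mice 2, and they were not set against each other.

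**Figure D2:**
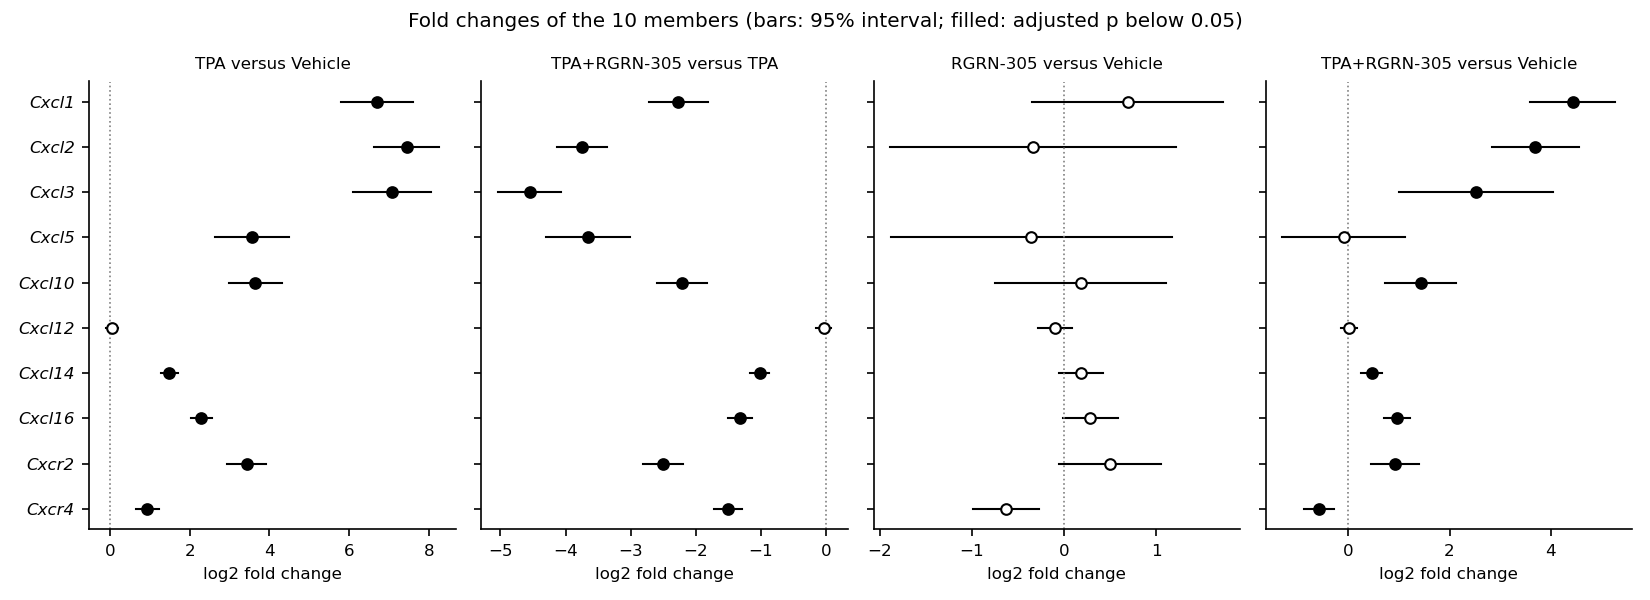
Each panel is 1 comparison, with the log2 fold change of each member on the horizontal axis, bars for the 95% interval and filled points for an adjusted p below 0.05. Points lie right of 0 for 9 genes with TPA and left of 0 for 9 genes in TPA+RGRN-305 versus TPA, Cxcl12 is open in all panels, Cxcl3 is not drawn for RGRN-305 alone, and its points against Vehicle rest on 3 Vehicle counts.

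The effect of TPA was smaller in mice given RGRN-305 than in mice not given it for 8 of the 10 genes, as tested by the interaction of the 2 treatments over all 4 groups, against 25% of all genes lower and 25.8% higher. With the limits on size and count 6 of them were DEGs, against 5.49% of all genes lower. Without Cxcl3 and Cxcl5 it was 7 of 8 genes, with the same 6 DEGs. The difference of the TPA effects was -3.42 on the log2 scale for Cxcl2 (adjusted p = 0.0014, edgeR), -3.00 for Cxcr2 (adjusted p = 2.3e-09, edgeR) and -2.96 for Cxcl1 (adjusted p = 3.9e-05, edgeR). Without Vehicle 3 the value for Cxcl1 was -4.36. For Cxcl5 it was -3.30 (-5.44 without Vehicle 4), a direction set by its passing the filter through the TPA libraries. Cxcl10, Cxcl16, Cxcl14 and Cxcr4 had -2.40, -1.61, -1.21 and -0.88, all past the adjusted p. Cxcl12 did not pass, and Cxcl3 gave no usable value because the RGRN-305 group was at 0.

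The members differed in how much of the TPA change was absent with RGRN-305. The share is the distance of each TPA+RGRN-305 mouse from the TPA mean towards the Vehicle mean, in percent of the TPA change on the log2 scale with a prior count of 2. For Cxcl1 it was 31.8% ± 7.16 (SD, n = 10), with single mice from 21.4% to 46.3%, the lowest share of the 9 genes that rose. The share is relative to the rise, and Cxcl1 was not the gene that fell least. Its fall of 2.27 on the log2 scale was larger than those of Cxcl10, Cxcl14, Cxcl16 and Cxcr4, and smaller than those of Cxcl2, Cxcl3, Cxcl5 and Cxcr2. The share was 52.5% ± 9.40 for Cxcl2, 58.2% ± 10.3 for Cxcl16, 60.9% ± 13.2 for Cxcl10, 69.7% ± 15.2 for Cxcl14, 74.3% ± 15.1 for Cxcr2 and 76.5% ± 11.4 for Cxcl3. For Cxcl5 it was 91.5% ± 19.9, a value that depends on Vehicle 4. For Cxcr4 it was 161% ± 33.5, with all 10 mice beyond the Vehicle mean, the lowest at 125%. The prior count pulls low genes such as Cxcl3 and Cxcl5 towards smaller changes, and the shares of different genes were not tested against each other on this scale.

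**Figure D3:**
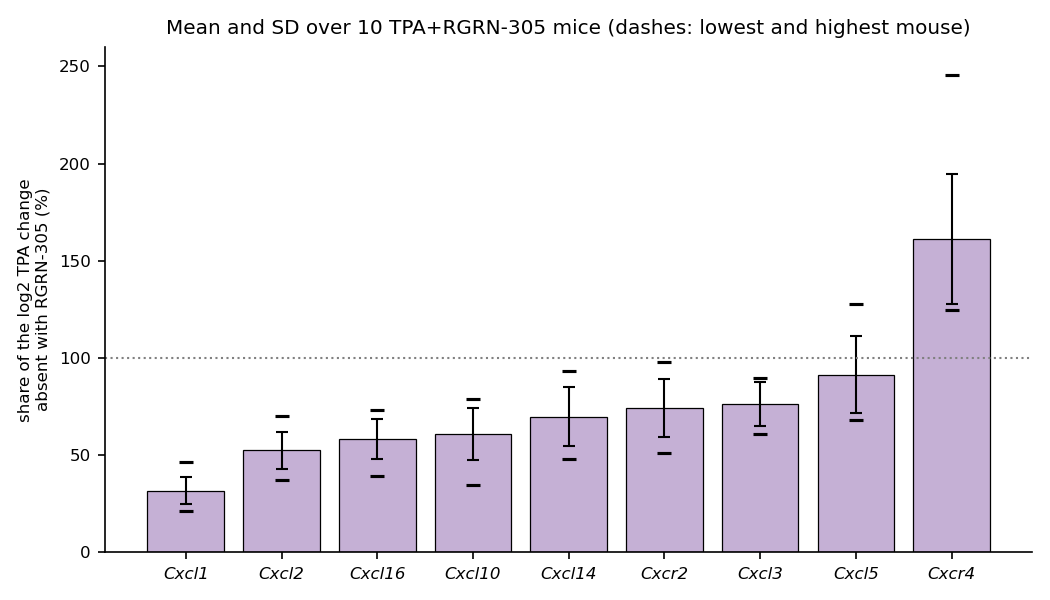
Bars give the mean share of the log2 TPA change absent in TPA+RGRN-305 mice, in percent, with SD over 10 mice, dashes for the lowest and highest mouse and a dotted line at 100%. Cxcl1 has the shortest bar at 31.8%, and Cxcr4 is the only bar whose mice all lie above 100%.

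The balance between the ligands was compared within each library, since a ratio of 2 genes in the same library does not depend on the scaling. Counts with 0.5 added were used, and the 9 ratios of Cxcl1 to each other member were compared between the 10 TPA and the 10 TPA+RGRN-305 mice with two-sided permutation tests, a test chosen after the values had been seen. The log2 ratio of Cxcl1 to Cxcl2 was 1.33 ± 0.14 in TPA mice and 2.88 ± 0.32 in TPA+RGRN-305 mice (SD, n = 10 each), a 2.92-fold shift towards Cxcl1 in which the mice did not overlap (permutation p = 2e-05, adjusted p = 4.5e-05). With RGRN-305 alone this ratio ran from 2.72 to 5.73, against 0.67 to 2.79 in Vehicle mice. Those values rest on at most 17 and 23 counts of Cxcl2 in a library, and their difference was not tested. The ratios to Cxcl3 and Cxcl5 moved by 2.29 and 1.48, also towards Cxcl1, and are given as description only. Both genes passed the filter only through the TPA libraries. In TPA+RGRN-305 mice they had at most 11 and 6 counts, so that the 0.5 added weighs on these 2 ratios. The ratio to Cxcl10 differed by -0.08 on the log2 scale, 5.44 ± 0.36 against 5.36 ± 0.44, and did not pass (permutation p = 0.661). The ratio to Cxcr2 moved by 0.23 (permutation adjusted p = 0.0458) and did not pass without the 5 of these 20 libraries that were high in hair follicle transcripts (0.18, adjusted p = 0.0698) or without TPA+RGRN-305 6 (0.19, permutation adjusted p = 0.0881). The ratios to Cxcl12, Cxcl14, Cxcl16 and Cxcr4 fell, by 2.29, 1.31, 1.01 and 0.82.

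Mice given TPA+RGRN-305 also differed among themselves, and in them Cxcl1 and Cxcr2 were high in the same animals. Relations among the 10 members and the summed neutrophil markers were computed on log2 values in TPA mice and, apart, in TPA+RGRN-305 mice, 110 in all. Across the 10 TPA+RGRN-305 mice Cxcl1 and Cxcr2 had a Pearson r of 0.90 (permutation p = 3.0e-04, adjusted p = 0.0330) and a Spearman rho of 0.94 (permutation p = 3.0e-04, adjusted p = 0.0330), and r was 0.79 without the 2 mice farthest from the median of Cxcl1. Across the 10 TPA mice r was 0.18 (rho 0.13, permutation adjusted p = 0.785), and the difference between the groups was not tested. In TPA+RGRN-305 mice 6 relations passed the adjusted p by Pearson and all 6 were positive, and in TPA mice 0 passed. By Spearman 2 passed in TPA+RGRN-305 mice, Cxcl1 with Cxcr2 and Cxcl1 with Cxcl3 (rho 0.90, permutation adjusted p = 0.0346), and the latter did not pass by Pearson (r = 0.73, permutation adjusted p = 0.0856), so that 1 relation passed by both. Cxcl1 and Cxcl2 had r = 0.91 (rho 0.73, permutation adjusted p = 0.0466 and 0.147). With the neutrophil markers Cxcl10 had r = 0.86 (rho 0.87, permutation adjusted p = 0.0466 and 0.0836). Cxcr2 had r = 0.85 with them (rho 0.85, permutation adjusted p = 0.0466 and 0.0836), and Cxcl3 r = 0.82 (rho 0.76, permutation adjusted p = 0.0466 and 0.138). Cxcl3 had at most 11 raw counts in a TPA+RGRN-305 library, so that all its relations in these mice rest on few counts. With library totals alone 1 relation passed, that of Cxcl1 with Cxcr2 (r = 0.89, permutation adjusted p = 0.0385). The values of a mouse share its library and its scaling.

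**Figure D4:**
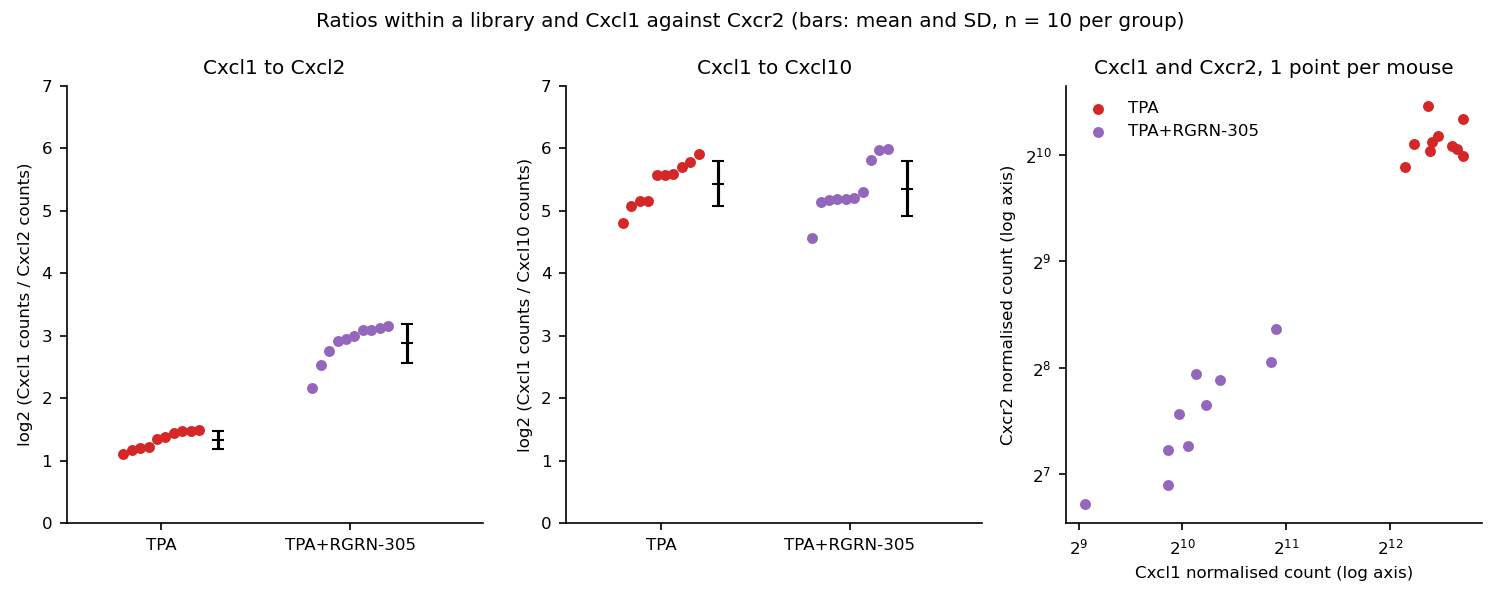
The left and middle panels give the log2 ratio of Cxcl1 to Cxcl2 and to Cxcl10 counts (0.5 added to each) in TPA and TPA+RGRN-305 mice, 1 point per mouse, with mean and SD beside them. The right panel gives normalised counts of Cxcl1 and Cxcr2 on log axes, and the TPA+RGRN-305 mice (r = 0.90) lie along a rising line below the TPA mice.

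Per kilobase of gene length, as given in the count table, the order of the members changed with treatment. In Vehicle mice Cxcl14 was highest with a mean of 682 normalised counts per kilobase, followed by Cxcl12 with 222, Cxcl16 with 183 and Cxcr4 with 59.7, and Cxcl14, Cxcl12 and Cxcl16 each lay above the next in every mouse. Cxcr4, Cxcr2 (34.0), Cxcl1 (28.6), Cxcl2, Cxcl10, Cxcl5 and Cxcl3 followed in that order, with each overlapping its neighbour. In TPA mice Cxcl1 led with 3040.1, above Cxcl14 with 1907 in all mice, and then came Cxcl2 with 1093 and Cxcl16 with 891, which overlapped, Cxcr2 with 369 and Cxcl12 with 229. In TPA+RGRN-305 mice Cxcl14 led again with a mean of 939, overlapping Cxcl1 with 632, and then Cxcl16 with 356, Cxcl12 with 223 and Cxcl2 with 81.2. With RGRN-305 alone Cxcl14 had 777 and Cxcl1 48.1.

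**Figure D5:**
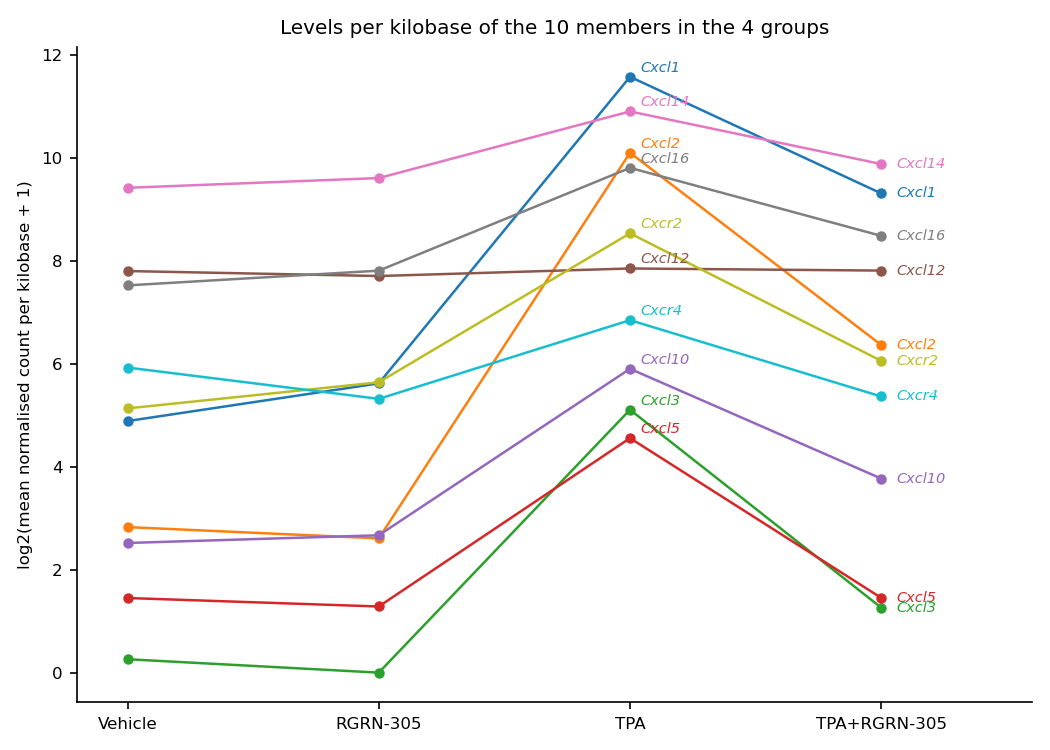
Lines join the group means of each member, as log2(mean normalised count per kilobase + 1) on the vertical axis, over the 4 groups on the horizontal axis. Cxcl1 goes from the sixth place in Vehicle mice (28.6 per kilobase) to the first in TPA mice (3040.1), and Cxcl12 stays between 207 and 229 in all groups.

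Of 13 other CXC ligands and receptors, 7 had enough counts to be tested. Their median log2 fold change was 0.61 with TPA and -0.51 in TPA+RGRN-305 versus TPA. The 8 members not bound to the TPA libraries by the filter had 2.86 and -1.86, though Ppbp rose more than Cxcl14 and Cxcr4. With TPA 5 of the 7 were higher and 1 lower, against 31.6% and 34.4% of all genes. In TPA+RGRN-305 versus TPA 1 was higher and 5 lower, against 33% and 32.6%. There were 0 DEGs in either, but Ppbp, Cxcr3 and Cxcr6 had means below 50 in every group and could not be DEGs. Nor could Cxcl9, whose mean over all libraries was below 50 (group means 21.3 to 63.8). Ppbp, a platelet chemokine that lies between Cxcl5 and Cxcl3, had a mean of 5.2 normalised counts in Vehicle mice and 16.5 in TPA mice (log2 fold change 1.65, adjusted p = 6.8e-05, edgeR). Pf4, its neighbour and also a platelet chemokine, had 609 and 766 (log2 fold change 0.33, adjusted p = 0.0367, edgeR). Both changes were smaller than those of Cxcl1 (6.70) and Cxcl2 (7.45), which lie in the same cluster. Cxcr3, the receptor of Cxcl10, was the gene that fell with TPA, from 19.6 to 7.9 (log2 fold change -1.28, adjusted p = 3.8e-04, edgeR), and it had 15.2 in TPA+RGRN-305 mice (0.93 higher than TPA on the log2 scale, adjusted p = 0.0013, edgeR). Ackr3, a scavenger receptor of Cxcl12, had 1103, 1679.5 and 1170.4 in Vehicle, TPA and TPA+RGRN-305 mice. Cxcl15 and Cxcr5 had 3 counts or fewer in every library.

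Of 19 genes for signalling downstream of CXC receptors and for ligand processing, all tested, 10 were higher and 6 lower after TPA, while adding RGRN-305 to TPA left 6 higher and 11 lower. The background over all genes was 31.6% higher and 34.4% lower after TPA, and 33% higher and 32.6% lower with RGRN-305 added, so that the 6 lower in the first comparison and the 6 higher in the second were shares near the background. Pik3r5, the regulatory subunit of the PI3-kinase used by chemokine receptors in leukocytes, rose by 2.25 on the log2 scale with TPA and fell by 1.60 with RGRN-305 (adjusted p = 6.1e-16 and 1.3e-16, edgeR). Sdc4, a heparan sulfate proteoglycan that binds chemokines, rose by 2.05 and fell by 1.63 (adjusted p = 1.1e-16 and 2.7e-18, edgeR).

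The neutrophil markers tested rose with TPA and were lower with RGRN-305 added, as were 9 of the 10 members, Cxcr2 ligands or not. Across the 10 TPA mice no relation of a member to the summed markers passed. Across the 10 TPA+RGRN-305 mice those of Cxcl10, Cxcr2 and Cxcl3 passed by Pearson (r = 0.86, 0.85 and 0.82, permutation adjusted p = 0.0466 each). They did not pass by Spearman, and the difference between the groups was not tested. Of 14 markers, 11 had enough counts to be tested, and 4 of these (Fpr1, Fpr2, Cd177 and Mmp8) passed the filter only through the TPA libraries, which set their direction. The other 7 were higher after TPA, against 31.6% of all genes, and lower once RGRN-305 was added, against 32.6%. Their sum over the 14 was 401 to 468 normalised counts in Vehicle mice, 384 to 427 with RGRN-305 alone, 4176 to 7282 with TPA and 408 to 1157 with TPA+RGRN-305. Most of the Vehicle sum came from Mmp9 (mean 235) and Itgam (mean 111), which other cells also express. Trem1, a receptor of myeloid cells, had means of 1.3 in Vehicle, 378 in TPA and 12.2 in TPA+RGRN-305 mice. Csf3r, the receptor of the granulocyte growth factor G-CSF, had 29.3, 1375 and 115. Retnlg rose by 6.96 on the log2 scale with TPA, and Mmp8, a collagenase of neutrophil granules, fell by 4.91 in TPA+RGRN-305 versus TPA. The defining marker Ly6g had 0 counts in all Vehicle and RGRN-305 libraries and at most 15 counts in a TPA library, and Mpo and Elane, genes of neutrophil precursors, had at most 5 counts in any library. The part of the neutrophil markers in the values of Cxcr2 and of the ligands was not tested.

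With TPA the monocyte or macrophage, keratinocyte, fibroblast and endothelial markers moved in both directions. Over all genes 31.6% were higher and 34.4% lower with TPA, and 33% higher and 32.6% lower in TPA+RGRN-305 versus TPA. The share of monocyte or macrophage markers that rose with TPA was near that background, and no list was tested against it. For monocytes or macrophages 3 of 10 rose with TPA (among them Ly6c2 by 0.83 and Mrc1 by 0.49 on the log2 scale) and 2 fell, for keratinocytes 3 of 6 rose (among them Dsg3 by 2.25 and Krt1 by 0.58) and 1 fell, for dermal fibroblasts 1 of 6 rose (Pdgfra, 0.50) and 1 fell (Lum, -0.31), and for endothelium 1 of 6 rose (Cdh5, 0.70) and 1 fell (Egfl7, -0.86). Of 5 T cell markers tested, 0 rose and 3 fell with TPA (among them Cd3g and Cd3d, both at -0.62). Between TPA+RGRN-305 and TPA mice, 2 were higher and 4 lower of the monocyte or macrophage markers, 3 and 2 of the keratinocyte markers, 0 and 1 of the fibroblast markers, 3 and 3 of the endothelial markers, and 2 and 0 of the T cell markers. The 9 hair follicle markers had 1 higher with TPA (Krt27, by 3.13 on the log2 scale) and 2 higher in TPA+RGRN-305 versus TPA (Krt35 by 3.96 and Krt85 by 3.94), and these markers belong to the list whose sum was high in 7 libraries. The median log2 fold change of the monocyte or macrophage markers was 0.06 with TPA and, with RGRN-305 added to TPA, -0.21 relative to TPA, and the part of these cells in the values of the members was not tested. Without the 7 libraries high in hair follicle transcripts the counts of members past the adjusted p were the same in all 5 comparisons.

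By the pattern of the 4 group means relative to Vehicle, measured as the root mean square difference of log2 values over those 4 groups, the protein-coding genes most like Cxcl1 were Ccl20 (0.47), Epgn (0.60) and Fosl1 (0.78). Those most like Cxcl2 were Il1b (0.41), Il6 (0.52) and Has1 (0.58). Cxcl3 was nearest to Gzmb (0.15), Cd300lf (0.17) and S100a8 (0.20), and Cxcl5 to Tnfsf14 (0.09), Slamf1 (0.11) and Stfa2l1 (0.13). Cxcl10 was nearest to Krt6b (0.09), Nrg1 (0.09) and Fst (0.11), Cxcr2 to Nfil3 (0.05), and Cxcr4 to Il4 (0.13). Small changes have many near neighbours, so that the distances of Cxcl12 to Sap130 (0.0067), of Cxcl14 to Rybp (0.02) and of Cxcl16 to Igsf3 (0.05) cannot be read against those of Cxcl1.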

How the data were processed

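The authors aligned paired-end reads to GRCm39 and deposited raw counts per gene made with Subread version 2.10.3, the version in the submitters' processing notes, with reads counted where unique and unambiguous, so that near-identical stretches of paralogs such as Cxcl1, Cxcl2 and Cxcl3 may lose reads. The deposited table also held a gene length, used per kilobase, and 0 of its value columns lacked a matching sample. GENCODE release 39 held 54749 of the 55414 gene identifiers. The release the authors used is not given in the sources used here.

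In R version 4.3.3, genes passed filterByExpr (edgeR version 4.0.16, minimum count 10, minimum total count 15), were scaled by TMM and tested with the quasi-likelihood test over all 28 libraries with a term per group, with adjustment by Benjamini and Hochberg over 18991 genes. DESeq2 version 1.42.0 was an alternative. Alternatives also included RLE size factors, library totals alone, no filter, fits of only the groups compared, a replicate block and leaving out libraries. Ratios and correlations used two-sided permutation tests with 100000 resamples, and the smallest p these can give is 1e-05. Counting intervals are 95% and cover counting error only. Within groups, pairs of libraries differed by 4.86 to 31.1 times the sampling variance, so that none was taken for a library deposited a second time. Each library is a separate mouse.

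The 10 members and the lists of other CXC genes, of signalling genes and of markers (neutrophil, monocyte or macrophage, keratinocyte, dermal fibroblast, endothelial, T cell, hair follicle) were chosen with earlier results of these data known. All members are named, and of each list up to 2 genes per comparison that passed the adjusted p and changed most, and those at 3 counts or fewer in every library. Pf4, Cxcr1, Cxcr6, Ackr3, Csf3r, Mmp9, Itgam, Ly6g, Mpo and Elane were named after their values were seen.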

Additional observations from a re-analysis of the deposited data

Results flagged for a closer look

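Of 39 sets of values, each 1 gene in 1 treatment group, 4 held a mouse far from the others by a gap test, which chance alone gives in about 1 in 20 sets. These 4 sets lay in the Vehicle and the TPA+RGRN-305 group. Vehicle 3 had 153 normalised counts of Cxcl1, where the other Vehicle mice had 13.5 to 30.0. Vehicle 4 had 10.9 normalised counts of Cxcl5, where the others had 0 to 1.04. TPA+RGRN-305 10 had 53.7 normalised counts of Cxcl10, above the other 9 mice, and TPA+RGRN-305 3 had 40.5 normalised counts of Cxcr4, below the other 9.

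The effect of TPA differed between mice given RGRN-305 and mice not given it by -2.96 on the log2 scale for Cxcl1, -3.42 for Cxcl2, -3.30 for Cxcl5, -2.40 for Cxcl10, -1.21 for Cxcl14, -1.61 for Cxcl16, -3.00 for Cxcr2 and -0.88 for Cxcr4, each past the adjusted p of the interaction term in edgeR.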

How the results depend on the processing

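Of the fold changes of single members, 169 of 170 kept their direction and their side of the threshold over the alternatives in TPA versus Vehicle, 169 of 170 in TPA+RGRN-305 versus TPA, 162 of 168 in RGRN-305 versus Vehicle, 159 of 168 in TPA+RGRN-305 versus Vehicle and 159 of 160 in the interaction. Library totals alone gave Cxcl12 -0.24 with TPA, 0.22 with RGRN-305 added to TPA and -0.017 for both treatments against Vehicle, moved its interaction to 0.34, past the threshold, and left 1 of 6 correlations. Without the 7 libraries high in hair follicle transcripts, an alternative chosen after seeing the data, 5 genes and not 3 were DEGs in TPA+RGRN-305 versus Vehicle. Without the 4 libraries highest in these transcripts Cxcl10 was -0.063 in RGRN-305 versus Vehicle and Cxcl12 -0.052 in TPA+RGRN-305 versus Vehicle, and Cxcl12 was -0.012 without the library low in Xist. The causes were not tested.

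With 1 Vehicle or RGRN-305 mouse left out at a time, there were 9 genes past the adjusted p and 6 DEGs with TPA, 9 and 7 when RGRN-305 was added to TPA, 0 and 0 with RGRN-305 alone, 7 to 8 and 3 to 4 in TPA+RGRN-305 versus Vehicle, and 8 and 6 in the interaction. In RGRN-305 versus Vehicle the log2 fold change then ran from -0.66 to 0.13 for Cxcl2, from -0.72 to 1.79 for Cxcl5 and from -0.19 to 0.49 for Cxcl10. In TPA+RGRN-305 versus Vehicle it ran from -0.46 to 2.05 for Cxcl5, from 2.18 to 3.42 for Cxcl3 and from -0.0014 to 0.019 for Cxcl12.

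The groups share replicate numbers in the titles, but of 30 pairs of same-numbered mice 2 correlated above 0.1 (range -0.13 to 0.20) and 3 correlated best with their own number, so that the numbers were not taken to pair the mice. With the replicate number as a block 9, 9, 0, 7 and 8 members passed in the 5 comparisons, Cxcl3 in TPA+RGRN-305 versus Vehicle did not (2.48, adjusted p = 0.0571, edgeR), and Cxcl5 there was 0.0058.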
